A study of Mus musculus with 38 samples.

Results

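Small nuclear RNAs (snRNAs), small nucleolar RNAs (snoRNAs) and small Cajal body RNAs (scaRNAs) were examined in a ribosome profiling study of mouse cortical neurons in which ribosomes near a biotinylating bait were pulled down. The rule uses annotation and no measured value: it takes every transcript outside the table of coding sequences whose GENCODE M21 transcript type is snRNA, snoRNA or scaRNA. There were 2943 such transcripts among 55160 rows of the combined table, of which 1385 were of type snRNA, 1507 of type snoRNA and 51 of type scaRNA. At least 1 count was recorded for 1184 of them, at least 10 counts for 817 and at least 1000 counts for 212, and 1759 had no count in any library. By Rfam family and name, the members with a count were 620 snRNAs, 281 box C/D snoRNAs, 204 box H/ACA snoRNAs, 35 scaRNAs and 44 other snoRNAs. None of these transcripts has an annotated coding sequence of its own, and 7 of the 2943 overlap the coding sequence of another gene, 77 another exon and 102 an exon of a retained-intron transcript, so counts on these may come from the overlapping transcript.

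All libraries came from primary neurons of embryonic CD-1 mouse cortex that carried a doxycycline-inducible lentiviral bait, either TurboID-PSD95, a fusion of the biotin ligase TurboID to the postsynaptic scaffold PSD95, or Pan-TurboID, which is not tied to the synapse. Every culture, controls included, received cycloheximide for 2 min and then, per the labels, biotin for 30 min (the study's methods give a shorter time after DHPG), and several dishes were pooled into each sample. Monosomes were prepared with micrococcal nuclease; a portion was kept as input and the rest was bound to streptavidin beads as pulldown, so that each numbered replicate has an input and a pulldown from the same lysate. The 38 libraries form 14 groups, 10 of 3 libraries and 4 of 2. In the first experiment TurboID-PSD95 and Pan-TurboID neurons were either left at rest or depolarized with 55 mM KCl for 1 h after silencing with tetrodotoxin and DL-AP5. In the second, TurboID-PSD95 neurons received the group I metabotropic glutamate receptor agonist DHPG at 100 µM for 10 min after the same silencing. In the third, TurboID-PSD95 neurons were transfected with 20 nM siRNA against the initiation factor eIF4G2 for 72 h and were left at rest or depolarized. The bait of the DHPG and siRNA experiments is taken from the label for the lentivirus. The sample descriptions of the DHPG inputs and of all eIF4G2 siRNA libraries name the cytosol instead of the postsynaptic region, which stands in conflict with that label for the siRNA pulldowns. No library without bait or without biotin, no resting library of the DHPG experiment and no control-siRNA library was analysed here, so what differs between experiments cannot be assigned to the treatment.

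In the cell, snRNAs form the RNA core of the spliceosome. U1 and U2 recognise the 5′ splice site and the branch point, U4, U5 and U6 join as a tri-snRNP, and U11, U12, U4atac and U6atac take these roles in the minor spliceosome together with U5. Most carry a short U-rich Sm site on which a ring of Sm proteins is assembled in the cytoplasm before the particle is reimported into the nucleus, whereas U6 remains in the nucleus and binds a different ring of LSm proteins. Box C/D snoRNAs guide 2′-O-methylation and box H/ACA snoRNAs guide pseudouridylation of ribosomal RNA, scaRNAs do so for snRNAs, and U3, U8, U13 and U17 take part in pre-ribosomal RNA processing instead. Most vertebrate snoRNAs are cut from introns of host genes, and neurons transcribe large snoRNA clusters from imprinted loci such as Snhg14, with SNORD116 and SNORD115, and Rian.

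The sequences below are those on which the results turn, and they were read from the deposited build, mm10 (GRCm38). The U1 genes come first because 3 of them with related sequences gave very different values. Rnu1b2 (chr3:96374021-96374185, plus strand, intergenic) has the Sm-type motif TTTNTG in capitals, and in Gm22220 (chr12:54239238-54239386, plus strand, in an intron of 1700104L18Rik) and Gm22068 (chr11:87426716-87426879, plus strand, in an intron of Tex14) capitals mark the bases that are not the same in the alignment with Rnu1b2. Gm22220 was 73.8% identical to Rnu1b2 over the alignment and Gm22068 95.8%.
Rnu1b2: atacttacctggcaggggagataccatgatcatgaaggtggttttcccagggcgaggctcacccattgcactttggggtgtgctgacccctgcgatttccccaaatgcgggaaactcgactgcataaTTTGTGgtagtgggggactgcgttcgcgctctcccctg
Gm22220: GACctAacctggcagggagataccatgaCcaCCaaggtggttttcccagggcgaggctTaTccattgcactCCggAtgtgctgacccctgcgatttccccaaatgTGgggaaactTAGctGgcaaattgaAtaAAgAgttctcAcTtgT
Gm22068: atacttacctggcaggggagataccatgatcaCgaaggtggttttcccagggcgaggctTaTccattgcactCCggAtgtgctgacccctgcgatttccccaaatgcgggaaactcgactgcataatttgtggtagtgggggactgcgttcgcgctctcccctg

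Rnu11 (chr4:132270080-132270213, minus strand) is the U11 snRNA, with the Sm-type motif in capitals. Gm24407 (chr5:115490254-115490394) and Gm24265 (chr5:115489459-115489599) are neighbouring U4 genes on the plus strand with 654 bases between them. They differ at 2 positions counted from the 5′ end of Gm24407, A88G and A99C, which stand in capitals in Gm24265, while the capitals in Gm24407 are its Sm-type motif.
Rnu11: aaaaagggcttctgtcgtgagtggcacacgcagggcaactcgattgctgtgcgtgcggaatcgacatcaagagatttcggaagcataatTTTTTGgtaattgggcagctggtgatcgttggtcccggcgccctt
Gm24407: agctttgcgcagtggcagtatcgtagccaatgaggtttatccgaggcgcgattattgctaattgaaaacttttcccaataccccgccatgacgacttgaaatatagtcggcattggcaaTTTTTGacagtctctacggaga
Gm24265: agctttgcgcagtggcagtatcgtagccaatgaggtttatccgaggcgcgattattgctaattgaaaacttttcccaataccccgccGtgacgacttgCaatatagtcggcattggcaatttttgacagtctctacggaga

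The 5 snoRNAs that follow stand for families that moved in opposite directions. Rnu3a (chr10:40258467-40258680, plus strand) and Rnu3b2 (chr11:87471368-87471583, plus strand, in an intron of Tex14) encode U3. The capitals in Rnu3a are the D box CTGA, and those in Rnu3b2 are the bases that differ from Rnu3a, to which it was 85.4% identical. Gm26246 (chr7:59789331-59789424, minus strand) is a SNORD116 copy in an intron of Snhg14, and Snord52 (chr17:34950952-34951017, minus strand) lies in an exon of a retained-intron transcript of 1110038B12Rik. Both are box C/D snoRNAs and show the C box TGATGA and the D box in capitals. Snora47 (chr13:95330600-95330737, plus strand, in an intron of Zbed3) is a box H/ACA snoRNA with its ACA box in capitals.
Rnu3a: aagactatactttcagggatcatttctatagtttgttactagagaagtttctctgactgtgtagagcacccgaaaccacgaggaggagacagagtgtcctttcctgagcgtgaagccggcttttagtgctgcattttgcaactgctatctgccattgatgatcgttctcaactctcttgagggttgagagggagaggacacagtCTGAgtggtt
Rnu3b2: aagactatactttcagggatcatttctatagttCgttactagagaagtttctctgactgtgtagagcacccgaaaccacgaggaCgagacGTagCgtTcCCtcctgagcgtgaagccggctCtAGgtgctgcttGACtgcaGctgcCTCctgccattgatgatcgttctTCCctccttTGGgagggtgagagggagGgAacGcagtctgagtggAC
Gm26246: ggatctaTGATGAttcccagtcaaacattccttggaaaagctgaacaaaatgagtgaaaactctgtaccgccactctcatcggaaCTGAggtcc
Snord52: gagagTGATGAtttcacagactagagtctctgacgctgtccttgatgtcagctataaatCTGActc
Snora47: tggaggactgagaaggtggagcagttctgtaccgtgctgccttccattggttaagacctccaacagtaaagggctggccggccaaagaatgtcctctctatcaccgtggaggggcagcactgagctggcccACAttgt

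The motif TTTNTG was found on the transcribed strand in 21% of all members, in 29.9% of snRNAs and in 13.2% of snoRNAs and scaRNAs. It was in 100% of the U5 members, 84.6% of U7 and 67.8% of U1. A C box was found in 75.1% and a D box in 96.4% of box C/D members, and an ACA box in 65.3% of H/ACA members. A match says only that these letters are present.

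Many members are near copies of each other, and this limits which gene a count can be given to. An identical copy elsewhere among the members was found for 283. Gm26246 is 1 of 30 SNORD116 members with 1 sequence, of which 20 had a count, Rnu3b2 is 1 of 4 such members, and Gm22068 is 1 of 7 U1 members, Rnu1a1 and Gm26444 among them. A 25-base window occurred once in the genome for 100% of the windows in Snora47 and Snord52, 75.5% in Rnu11, 58.4% in Gm22220, 30.8% in Gm24407 and in Gm24265, 13% in Rnu5g and 0% in Gm26246. Whether reads with several matches were kept, and whether strand was used, is not given in the sources used here, so the level of any member with few such windows is uncertain, as is that of a member that overlaps an exon of another transcript. A further 29 members carry a gene name that another member also carries, Rnu3b2 and Gm23370 among them, with both annotations at 1 locus.

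Each library held 2044298 to 14620376 counts on coding sequences (CDS) and 39707 to 845192 counts on the members. A member's level is given as its counts per 1000000 CDS counts of the library, called the normalised count below, and it is divided by length in kilobases where members are compared with each other. Of all member counts, snRNAs took 90.8%, box C/D snoRNAs 5.92%, H/ACA snoRNAs 2.50% and scaRNAs 0.476%. U1 held 39.3% and U5 30.4%, and the 10 members with the most counts held 70.5%. Per kilobase, the U1 member Gm22220 had the highest mean level over all libraries, 72334 normalised counts, and the U5 genes Rnu5g at 44444, Gm25313 at 44429 and Gm25099 at 31870, then Rnu11 at 28079 and the U4 gene Gm24407 at 18814, came next. The mean of Gm22220 was raised by the eIF4G2 siRNA pulldowns, with 312803 at rest and 478833 after depolarization. It was not the highest in every group: the resting TurboID-PSD95 inputs had 10605 for Gm22220 and 17504 for Rnu11. In the library where Gm22220 had the most, 220791 counts fell on it, against 11324 possible combinations of a start on this transcript with a read length of 25 to 100 bases, so many counts are copies of the same start and length.

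The first question was whether fragments of these RNAs were carried along in the pulldown of ribosomes near either bait. Their summed level was higher in the pulldown than in the same-numbered input in 19 of 19 pairs. In resting TurboID-PSD95 neurons it was 17255, 20301 and 25576 normalised counts in the inputs and 38157, 37981 and 143932 in the pulldowns. The third pulldown stood apart from the other 2, and the lowest pulldown still lay above the highest input. In resting Pan-TurboID neurons the sums were 22021, 20820 and 12316 in inputs and 59731, 58130 and 57809 in pulldowns. After DHPG they were 6636, 6731 and 6437 in inputs and 21382, 18472 and 17533 in pulldowns. Inputs and pulldowns did not overlap in either set, and the DHPG inputs were lower than every other input and the DHPG pulldowns lower than every other pulldown. With eIF4G2 siRNA at rest the 2 inputs had 17642 and 18650 and the 2 pulldowns 136840 and 137293, and after depolarization the inputs had 28547 and 31836 and the pulldowns 165558 and 217899.

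As geometric means over pairs, the pulldown held 2.86 times the input level in resting TurboID-PSD95 neurons, 2.95 times after depolarization, 3.29 times in resting and 3.14 times in depolarized Pan-TurboID neurons, and 2.89 times after DHPG. With eIF4G2 siRNA the ratios were 7.56 at rest and 6.30 after depolarization. On the log2 scale the mean ratio was 1.51 ± 0.856 (SD, n = 3) at rest with TurboID-PSD95, 1.72 ± 0.445 (SD, n = 3) with Pan-TurboID and 1.53 ± 0.137 (SD, n = 3) after DHPG. Without replicate 3 the resting TurboID-PSD95 ratio was 1.02. In depolarized neurons the replicate 1 pulldowns stood apart, with 107981 normalised counts against 30923 and 39676 with TurboID-PSD95 and 138809 against 61294 and 52034 with Pan-TurboID. These values are shares of library counts, and in bulk samples fewer cells of a type and less RNA per cell cannot be told apart.

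**Figure D1:**
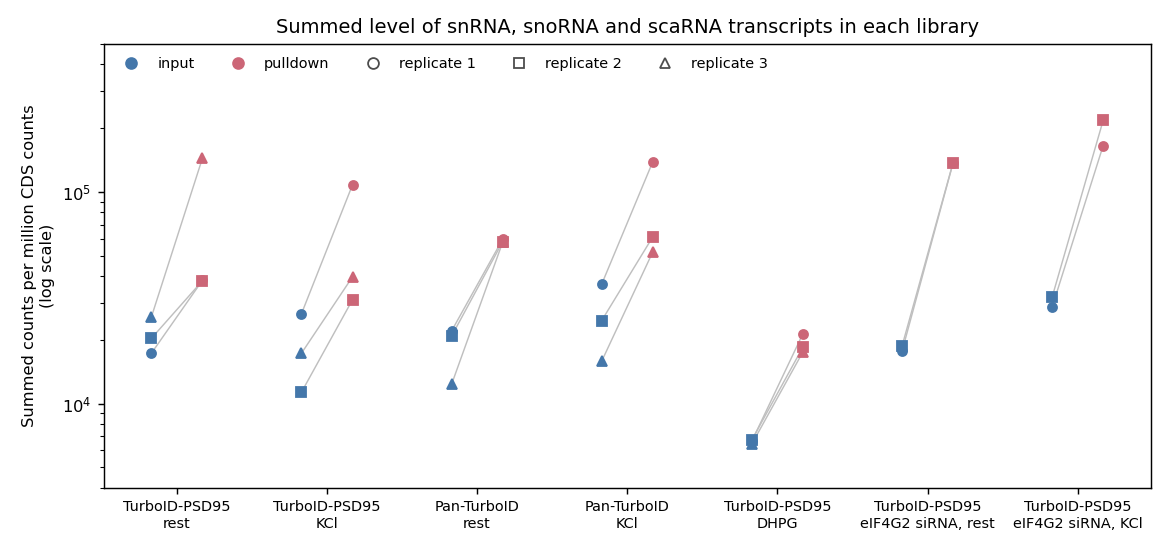
Summed level of all members in each library, in counts per 1000000 CDS counts on a log axis, with inputs in blue, pulldowns in red, the replicate number as the marker shape and a line joining the input and pulldown of 1 number. Every line slopes upward, and the 2 pulldown groups with eIF4G2 siRNA reach 136840 to 217899.

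Each member was then tested with edgeR's quasi-likelihood test in a fit over the whole table. After the filter on low counts, which keeps a row only if it is counted in enough libraries of either kind, 415 of the 2943 members were tested in the KCl experiment, 315 in the DHPG experiment and 368 in the siRNA experiment. A member at 0 in the inputs could pass only through the pulldowns, so the counts below describe the tested members and not all members. At an adjusted p under 0.05, 131 members were higher and 17 lower in the pulldown of resting TurboID-PSD95 neurons, where 8.32% of all rows tested were called higher and 12.1% lower. After depolarization 79 were higher and 8 lower, against 5.4% and 3.05% of all rows. With Pan-TurboID, 29 were higher and 12 lower at rest (2.48% and 3.65% of all rows) and 16 were higher and 9 lower after depolarization (2.42% and 2.4% of all rows).

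Pulldowns and inputs of 1 number deviated together in the KCl experiment. With the replicate number as a block, 228 members were higher and 21 lower at rest with TurboID-PSD95 (14.6% and 22.6% of all rows in the same fit) and 195 and 15 after depolarization (12.7% and 17% of all rows). For Pan-TurboID the block gave 141 and 23 at rest (10.5% and 17.8% of all rows) and 123 and 19 after depolarization (11.1% and 16.2% of all rows). The counts by family below are of the fit without the block, and in the KCl experiment most were larger with it. Leaving out 1 replicate number reduced the number of unblocked calls at rest with TurboID-PSD95 from 148 to 14, 43 and 7 without replicates 1, 2 and 3, of which 14, 42 and 7 were among the 148. After depolarization 87 members were called with all replicates and 8, 81 and 7 without replicates 1, 2 and 3, of which 8, 59 and 7 were among the 87. With Pan-TurboID 0, 0 and 2 of 41 calls were left at rest and none of 25 after depolarization whichever replicate was left out. Members named below are given with the adjusted p of the unblocked fit unless the block is mentioned.

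After DHPG, 247 members were higher and 46 lower in the pulldown, where 28.8% of all rows were called higher and 50.7% lower. With eIF4G2 siRNA 293 were higher and 14 lower at rest (16.8% and 28.5% of all rows) and 297 were higher and 21 lower after depolarization (19% and 29.1% of all rows). The median log2 difference was 2.66 over the members tested and -0.24 over all rows at rest with TurboID-PSD95, 1.71 and -0.21 with Pan-TurboID, 2.27 and -0.42 after DHPG, and 3.71 and -0.27 with eIF4G2 siRNA at rest. Over the other noncoding rows the medians were -0.75, -0.63, -1.41 and -0.92. Scaling by TMM factors of the coding genes instead of the CDS total moved all values of the DHPG comparison by 0.204 on the log2 scale and those of the other comparisons by 0.017 to 0.069.

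Restricting the count to members with at least 10 counts in every input, which does not depend on the pulldown, left 137 members at rest with TurboID-PSD95, of which 36 were higher and 17 lower, with a median log2 difference of 1.52. Of all rows that met the same minimum there, 9.39% were higher and 15% lower. After DHPG, 102 of 157 were higher and 45 lower, with a median of 1.59, against 27.7% and 53.6% of all such rows. With eIF4G2 siRNA at rest 138 members met the minimum, 134 were tested, 90 were higher and 14 lower, with a median of 2.35, against 15.6% and 30% of all such rows. Among 115 such members after depolarization with TurboID-PSD95 21 were higher and 8 lower, against 6.62% and 4.16%. With Pan-TurboID 8 were higher and 12 lower of 115 at rest (median 0.32), against 2.95% and 4.63%, and 3 were higher and 9 lower of 128 after depolarization (median 0.70), against 3.2% and 3.39%.

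**Figure D2:**
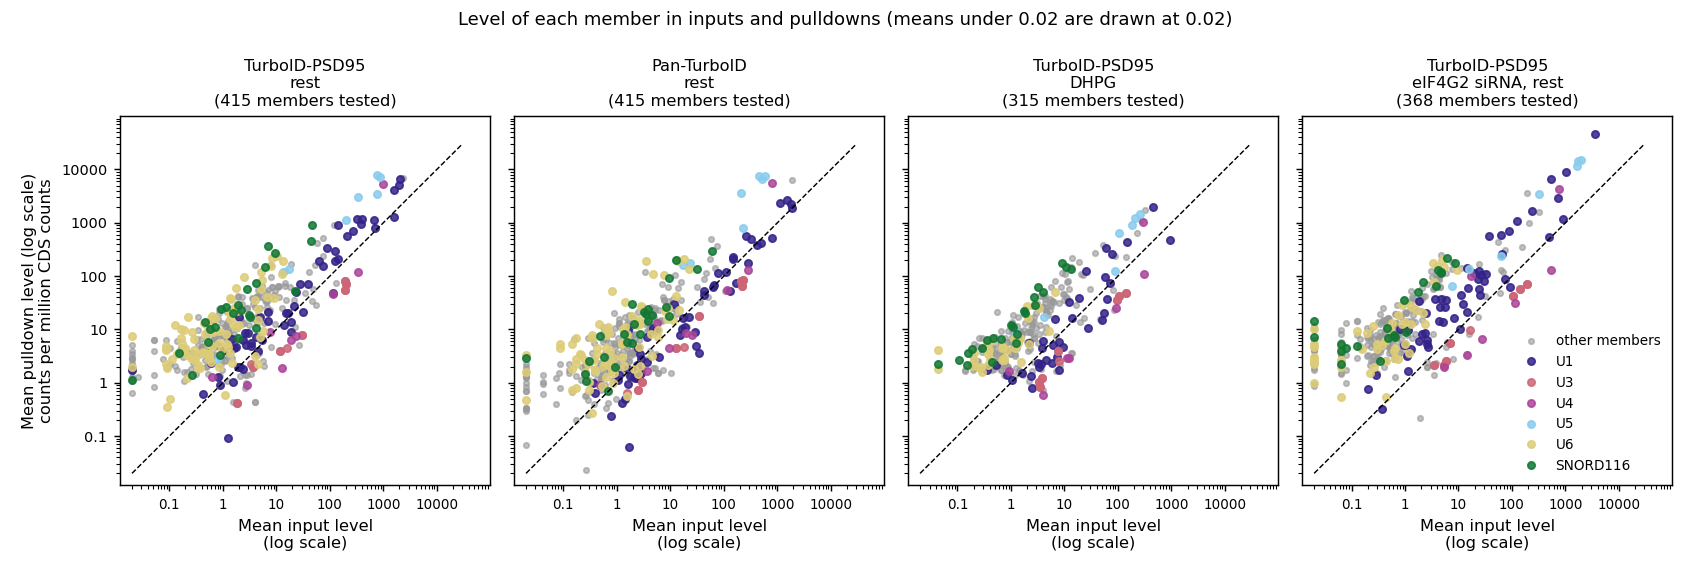
Mean pulldown level against mean input level of each tested member in 4 comparisons, in counts per 1000000 CDS counts on log axes, with 6 families coloured, other members in grey and equality as a dashed line. Most points lie above the line, by a median of 2.66 on the fitted log2 scale at rest with TurboID-PSD95 and 3.71 with eIF4G2 siRNA, while the U3 points lie below it. A member at 0 in the inputs could be drawn only if it was high in the pulldowns. Among members with at least 10 counts in every input the medians were 1.52 and 2.35 in the same order, and 0.32 with Pan-TurboID.

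The families differed widely in the size of this change, and U3 went the other way. Summed over its members, U5 was 2.78 higher on the log2 scale at rest with TurboID-PSD95, 3.73 with Pan-TurboID, 2.36 after DHPG and 2.97 with eIF4G2 siRNA at rest. U6 was 3.44, 2.69, 2.65 and 4.48 higher, and box C/D snoRNAs without U3 were 3.74, 2.41, 3.08 and 4.41 higher. U1 was 0.74, 0.48, 0.90 and 3.13 higher in the same order. The 3 pairs behind the first U1 value were -0.28, 0.27 and 2.22, so that it rested on replicate 3. U3 had -1.55, -1.47, -1.41 and -1.30.

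**Figure D3:**
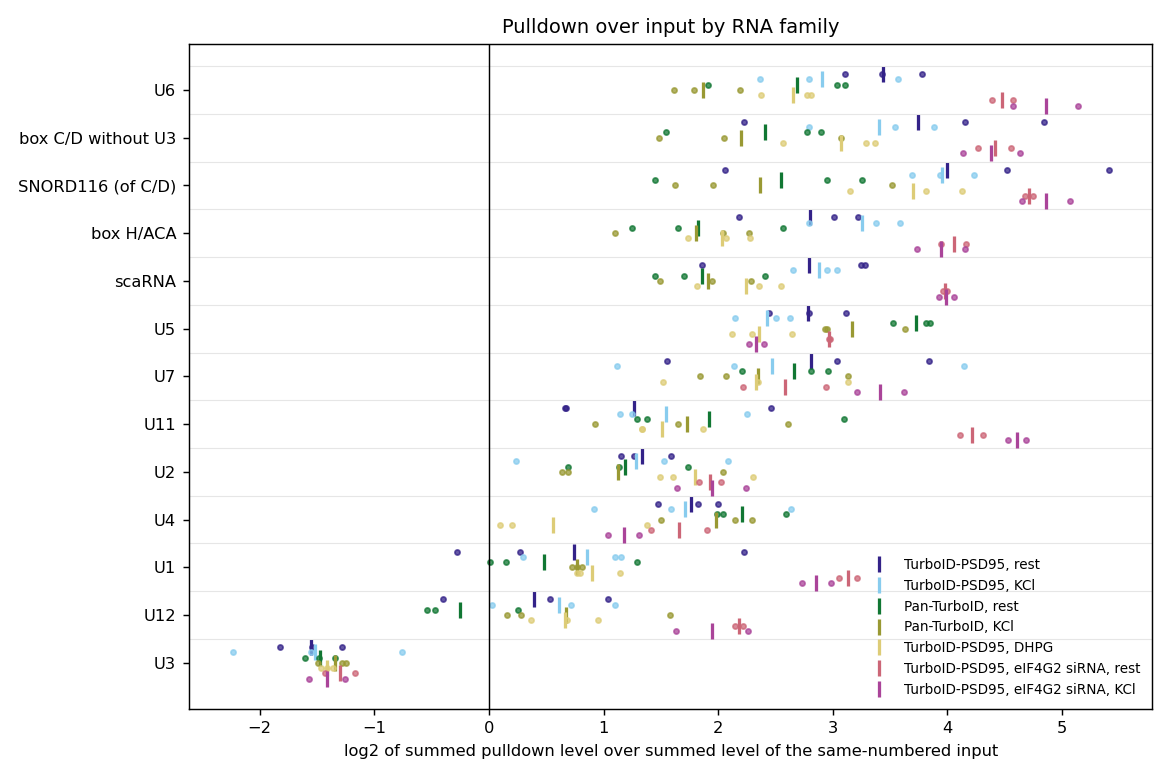
Log2 ratio of the summed pulldown level to the summed input level by family, with a dot for each same-numbered pair and a bar for the mean of each of 7 comparisons, coloured by bait and treatment. U3 lies below 0 in every pair. U6, box C/D without U3 and H/ACA lie above 0 in their means, and U1 and U11 reach 3.13 and 4.21 with eIF4G2 siRNA at rest against 0.74 and 1.26 at rest without it.

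U5, which holds the exons in place during both steps of splicing, was higher in the pulldown of every comparison when summed over its members. Rnu5g had 471, 236 and 1568 normalised counts in the resting TurboID-PSD95 inputs and 4418, 1991 and 16993 in the pulldowns, with no overlap, a log2 difference of 3.36 ± 1.12 (SE) and an adjusted p of 0.0436. It was not called without any 1 replicate (adjusted p 0.115 to 0.157), and the block gave 5.64e-06. After DHPG it had 234, 264 and 280 in inputs and 1720, 1402 and 1357 in pulldowns, 5.77-fold higher (log2 2.53 ± 0.0926 SE, adjusted p = 1.93e-11). Gm25099 rose 13.1-fold with Pan-TurboID at rest, from 514, 565 and 441 to 6230, 8116 and 5538 (log2 3.71 ± 0.815 SE, adjusted p = 0.0265), and lost the call without any 1 replicate (adjusted p 0.182 to 0.223). With eIF4G2 siRNA at rest Rnu5g had 1835 and 1647 in inputs and 14792 and 13847 in pulldowns, and 7 of 7 tested U5 members were higher (16.8% of all rows). Of the 8 U5 members tested in the KCl experiment, 3 were called higher at rest with TurboID-PSD95 (8.32% of all rows) and 4 with Pan-TurboID (2.48% of all rows), and none was called lower in any of the 7 comparisons.

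U1, which pairs with the 5′ splice site, had copies that moved in either direction. The diverged copy Gm22220 had 751, 1790 and 2199 normalised counts in the resting TurboID-PSD95 inputs and 656, 3761 and 8068 in the pulldowns, which overlapped (log2 1.40 ± 0.784 SE, adjusted p = 0.215). With the block it was called in resting and depolarized Pan-TurboID neurons (adjusted p = 0.0406 and 0.0208). After DHPG it rose 4.48-fold, from 478, 434 and 422 to 2376, 1927 and 1674 (adjusted p = 5.76e-08). With eIF4G2 siRNA at rest it rose 13.1-fold, from 3401 and 3704 to 48797 and 44418 (log2 3.71 ± 0.0819 SE, adjusted p = 2.03e-19), the highest level that any member reached in those libraries. Gm22068 went the other way after DHPG, from 51.5, 47.3 and 54.3 in inputs to 15.1, 15.9 and 13.8 in pulldowns (log2 -1.77 ± 0.109 SE, adjusted p = 4.23e-10), and also at rest with TurboID-PSD95, from 87.2, 160 and 97.1 to 31.9, 56.5 and 54.8 (log2 -1.28, adjusted p = 0.018, and 0.094 to 0.111 without 1 replicate). Gm26444 has the same sequence as Gm22068 yet rose after DHPG, from 18.9, 16.8 and 19.5 to 41.6, 36.6 and 37.6 (log2 1.07 ± 0.112 SE, adjusted p = 2.41e-07). Counts on identical copies therefore did not move together, and how reads were divided among them was not tested. Of the U1 members tested, 12 were higher and 15 lower of 36 after DHPG, close to the shares of all rows there (28.8% and 50.7%). In resting neurons with eIF4G2 siRNA 35 were higher and 1 lower of 53, where 16.8% and 28.5% of all rows were.

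The 2 neighbouring U4 genes moved in opposite directions. U4 pairs with U6 and keeps it inactive until the spliceosome is activated. Gm24407 had 806, 545 and 1619 normalised counts in the resting TurboID-PSD95 inputs and 4392, 2637 and 8719 in the pulldowns, 5.30-fold higher with no overlap (log2 2.41 ± 0.696 SE, adjusted p = 0.0254, and 0.084 to 0.126 without 1 replicate). Gm24265 had 102, 133 and 115 in the same inputs and 38.2, 51.7 and 50.9 in the pulldowns (log2 -1.32 ± 0.205 SE, adjusted p = 0.00153), and this call held without any 1 replicate. After DHPG Gm24407 went from 294, 344 and 243 to 1737, 743 and 594 (log2 1.8, adjusted p = 0.0299, up to 0.115 without 1 replicate) and Gm24265 from 92.6, 86.6 and 91.4 to 26.7, 26.1 and 22.7 (log2 -1.85, adjusted p = 4.5e-11). With eIF4G2 siRNA at rest Gm24407 went from 632 and 864 to 4841 and 3884 (log2 2.54, adjusted p = 0.0108, and 0.143 to 0.206 without 1 replicate) and Gm24265 from 126 and 98.9 to 36.9 and 26.9 (log2 -1.79, adjusted p = 1.04e-07). Gm24265 was called lower in all 7 comparisons, although the depolarized and the Pan-TurboID calls of the KCl experiment did not survive leaving out each replicate (adjusted p up to 0.213). Another U4-related member, Gm22122 (chr6:48289228-48289427, plus strand), is 60.6% identical to Gm24407 and fell after DHPG from 312, 303 and 323 to 122, 102 and 109 (log2 -1.49 ± 0.0723 SE, adjusted p = 3.11e-11). Of the U4 members tested after DHPG, 1 was higher and 5 were lower of 7, where 28.8% and 50.7% of all rows were.

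**Figure D4:**
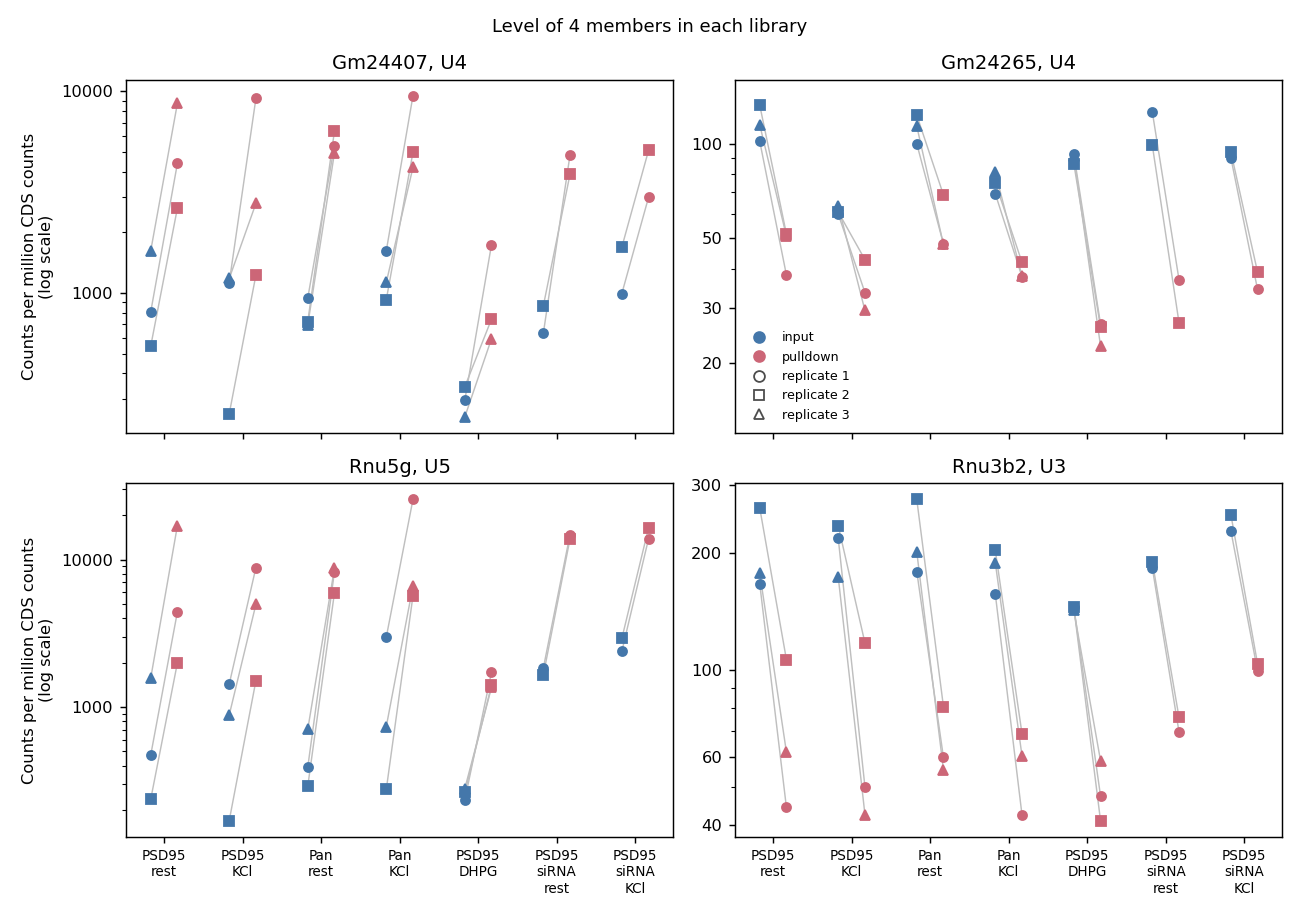
Level of the U4 genes Gm24407 and Gm24265, the U5 gene Rnu5g and the U3 gene Rnu3b2 in each library, in counts per 1000000 CDS counts on log axes, with inputs in blue, pulldowns in red, marker shapes for replicate numbers and lines joining same-numbered pairs. Gm24407 and Rnu5g slope upward and Gm24265 and Rnu3b2 downward in each of the 7 comparisons.

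U6, the catalytic snRNA, had low counts spread over many copies. Summed over its members it had 143, 102 and 291 normalised counts in the resting TurboID-PSD95 inputs and 1543, 877 and 3990 in the pulldowns. Of 87 U6 members tested there 36 were higher and none lower (8.32% and 12.1% of all rows), with a median log2 difference of 3.71, and after DHPG 33 of 34 were higher (28.8% of all rows). With eIF4G2 siRNA 41 of 49 were higher at rest (16.8% of all rows). Most of these copies had so few input counts that they passed the filter only through the pulldowns, so no direction is read from these counts. Of U6 members with at least 10 counts in every input 5 of 10 were higher at rest with TurboID-PSD95 (median log2 3.40), none of 10 with Pan-TurboID (median 1.52), 7 of 7 after DHPG (median 2.90) and 8 of 8 with eIF4G2 siRNA at rest (median 4.64), and none was lower. Among all rows that met this minimum 9.39%, 2.95%, 27.7% and 15.6% were higher in the same order. The gene Rnu6 belongs to a set of 43 members with 1 sequence and was at 0 in all libraries, while 27 members of that set had a count. For U2, which pairs with the branch point, 2 were higher and none lower of 14 at rest with TurboID-PSD95, where 8.32% of all rows were higher and 12.1% lower. After DHPG 6 were higher and 6 lower of 13, where 28.8% of all rows were higher and 50.7% lower.

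The snRNAs with and without the Sm-type motif were set side by side, and their order depended on which members were counted. Of all tested snRNAs at rest with TurboID-PSD95, 13 were higher and 3 lower of 93 with the motif, with a median log2 difference of 1.24, and 35 were higher and 3 lower of 95 without it, with a median of 3.24. Of all rows 8.32% were higher and 12.1% lower there. After DHPG the medians were 0.65 over 64 and 2.43 over 43, and with eIF4G2 siRNA at rest they were 2.25 over 77 and 3.80 over 62. The group without the motif holds most U6 members and many shortened copies that could pass the filter only through the pulldowns. The motif was also found in 137 of the 820 U6 members, so the split does not separate U6 from the other snRNAs. Among snRNAs with at least 10 counts in every input the medians were 0.97 over 61 with the motif and 1.34 over 18 without it at rest with TurboID-PSD95, 0.22 over 53 and -0.11 over 16 after DHPG, and 2.11 over 63 and 1.30 over 19 with eIF4G2 siRNA at rest. The motif group had the higher median in 5 of the 7 comparisons, also after depolarization with TurboID-PSD95 (1.14 against -0.58), with Pan-TurboID (0.63 against -0.25) and with eIF4G2 siRNA (2.12 against 0.24), and the lower one in resting TurboID-PSD95 and Pan-TurboID neurons (0.12 against 0.58 with Pan-TurboID). The groups were not tested against each other.

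The fixed list of the minor spliceosome held 2 genes, Rnu11 and Rnu12, and both passed the filter. By family 5 U11, 4 U12 and 8 of 26 U6atac members had a count, and only the 2 listed genes are described here. Rnu11, which recognises the 5′ splice site of minor introns, had 2002, 2564 and 2471 normalised counts in the resting TurboID-PSD95 inputs and 3181, 4097 and 13629 in the pulldowns (log2 1.57, adjusted p = 0.136). The pulldowns lay above the inputs in all 3 pairs, the third furthest, and the block gave an adjusted p of 0.102. After DHPG it rose from 201, 263 and 212 to 515, 666 and 785 (log2 1.54 ± 0.183 SE, adjusted p = 0.000295). With eIF4G2 siRNA it rose 18.8-fold at rest, from 182 and 201 to 3672 and 3539 (log2 4.23 ± 0.0887 SE, adjusted p = 1.28e-19), and 24.8-fold after depolarization, from 294 and 299 to 6879 and 7820. Rnu12, its partner at the branch point, rose less, from 153, 113 and 166 to 251, 220 and 217 after DHPG (log2 0.67 ± 0.118 SE, adjusted p = 0.000243) and from 29.4 and 30.3 to 114 and 113 with eIF4G2 siRNA at rest (log2 1.93 ± 0.19 SE, adjusted p = 2.4e-08). Neither was called in the 4 KCl comparisons without the block, and with it Rnu11 was called in resting and depolarized Pan-TurboID neurons (adjusted p = 0.0296 and 0.0433).

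Rnu7, the snRNA of histone pre-mRNA 3′ end processing, had few counts. After DHPG it had 2.08, 2.18 and 3.08 normalised counts in inputs and 17.4, 13.4 and 10.1 in pulldowns (log2 2.46 ± 0.257 SE, adjusted p = 2.26e-07). In the resting TurboID-PSD95 neurons it had 0.538, 1.53 and 10.9 in inputs and 6.30, 9.62 and 24.5 in pulldowns, which overlapped as groups although each pulldown lay above its own input. It was not called without the block (adjusted p = 0.241) and was called with it (0.000644), as in the other 3 KCl comparisons (0.000181 to 0.000471).

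U3, the box C/D snoRNA that guides early cleavages of the ribosomal RNA precursor, was lower in the pulldown in 19 of 19 pairs. The summed U3 level was 1211, 1506 and 1155 normalised counts in the resting TurboID-PSD95 inputs and 343, 619 and 397 in the pulldowns. With Pan-TurboID it was 1388, 1680 and 1240 against 548, 553 and 445, and after DHPG 717, 735 and 739 against 269, 266 and 288. No pulldown reached an input in any of these sets, and the third resting TurboID-PSD95 pulldown, which was the highest for all members together, lay between the other 2 for U3. With eIF4G2 siRNA at rest the inputs had 992 and 872 and the pulldowns 368 and 388. Over the 7 comparisons the mean log2 ratio ran from -1.55 to -1.30.

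Rnu3b2 was called lower in all 7 comparisons. It had 167, 262 and 178 normalised counts in the resting TurboID-PSD95 inputs and 44.4, 107 and 61.6 in the pulldowns (log2 -1.51 ± 0.328 SE, adjusted p = 0.00571, and up to 0.0807 without 1 replicate). In resting Pan-TurboID neurons it had 180, 276 and 202 against 59.7, 80.6 and 55.5 (log2 -1.75 ± 0.329 SE, adjusted p = 0.0128, and up to 0.187 without 1 replicate). After DHPG it had 146, 145 and 143 against 47.5, 41.0 and 58.6 (log2 -1.55 ± 0.104 SE, adjusted p = 1.44e-09), and with eIF4G2 siRNA at rest 183 and 190 against 69.4 and 75.7 (adjusted p = 9.17e-09). Rnu3a, at another locus, fell at rest with TurboID-PSD95 from 217, 228 and 123 to 56.2, 83.2 and 26.4 (log2 -1.76, adjusted p = 0.0112, and up to 0.0916 without 1 replicate). Most U3 genes are annotated more than once at their locus, so the 17 U3 members are 10 genes and the summed levels count both annotations. Of 9 U3 genes tested in the KCl experiment 6, 3, 3 and 2 were lower in the 4 comparisons, where 12.1%, 3.05%, 3.65% and 2.4% of all rows were lower. After DHPG 8 of 8 were lower (50.7% of all rows), with eIF4G2 siRNA 3 of 8 were lower at rest (28.5% of all rows) and 6 of 8 after depolarization (29.1% of all rows), and none was higher in any of them.

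Other snoRNAs of ribosomal RNA cleavage had low levels. Snord13 (U13), which has been placed at the 3′ end of the 18S RNA, fell after DHPG from 7.02, 6.53 and 6.97 to 1.55, 0.825 and 2.53 normalised counts (log2 -2.01 ± 0.314 SE, adjusted p = 2.21e-05). Snord118 (U8), needed for the large subunit RNAs, fell from 1.69, 1.87 and 2.92 to 0.953, 1.10 and 1.12 (log2 -0.99 ± 0.369 SE, adjusted p = 0.0218, and up to 0.152 without 1 replicate). With eIF4G2 siRNA Snord13 fell from 8.52 and 7.26 to 2.65 and 2.99 at rest (log2 -1.49, adjusted p = 0.0337, and up to 0.35 without 1 replicate) and from 13.2 and 10.5 to 2.68 and 1.88 after depolarization (log2 -2.36, adjusted p = 0.00284). Snora73b (U17), an H/ACA snoRNA, had 0.155 and 0.255 with eIF4G2 siRNA at rest in inputs, which is 1 and 2 counts, and 9.5 and 3.85 in pulldowns. Apart from U3 the fixed list of these snoRNAs held 8 members, Snord13 not among them. In the KCl experiment 5 were tested, of which 2 were called higher after depolarization with TurboID-PSD95 (5.4% of all rows) and none in the other 3 comparisons. After DHPG 5 were tested, and the U14 genes Snord14d and Snord14e and the U17 genes Snora73a and Snora73b were higher and Snord118 was lower (28.8% and 50.7% of all rows). With eIF4G2 siRNA 4 of 6 were higher in either state (16.8% of all rows at rest and 19% after depolarization) and none lower. The U14 and U17 genes had 1 to 14 counts in each DHPG input and could pass the filter only through the pulldowns, so these counts do not show that they differ from U3.

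Many box C/D snoRNAs other than U3 rose with TurboID-PSD95, after DHPG and with eIF4G2 siRNA, and their sum also rose with Pan-TurboID at rest. Their summed level was 221, 533 and 183 normalised counts in the resting TurboID-PSD95 inputs and 3939, 2496 and 5254 in the pulldowns, and 345, 340 and 370 against 3560, 3326 and 2196 after DHPG. Inputs and pulldowns were far apart in both. Of 94 tested, 41 were higher and none lower at rest with TurboID-PSD95 (8.32% and 12.1% of all rows), with a median log2 difference of 3.61, and 5 were higher and none lower with Pan-TurboID at rest, where 2.48% of all rows were called higher. With the block these counts were 68 and 37, with none lower in either, and whether the 2 baits differed was tested only member by member in the contrast below. After DHPG 102 of 105 were higher and 2 lower (28.8% and 50.7% of all rows), and with eIF4G2 siRNA at rest 95 of 105 were higher and 1 lower (16.8% and 28.5% of all rows). Among those with at least 10 counts in every input 9 of 15 were higher at rest with TurboID-PSD95 (median log2 3.40), 1 of 11 after depolarization (2.66), none of 7 with Pan-TurboID at rest (1.87), 35 of 37 after DHPG (2.88) and 17 of 19 with eIF4G2 siRNA at rest (4.42), against the shares of all such rows given above.

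Snord52, which lies in the transcript 1110038B12Rik, was called in 6 of the 7 comparisons. It had 1.77, 5.35 and 4.95 normalised counts in the resting TurboID-PSD95 inputs and 172, 181 and 138 in the pulldowns, 43.7-fold higher (log2 5.45 ± 1.47 SE, adjusted p = 0.0192, and 0.088 to 0.124 without 1 replicate). The block gave an adjusted p of 1.39e-05. With Pan-TurboID at rest it had 5.19, 3.53 and 1.28 against 208, 140 and 11.6 (adjusted p = 0.0492, and 0.185 to 0.253 without 1 replicate), and after DHPG 12.1, 12.6 and 16.1 against 260, 279 and 130 (log2 4.04 ± 0.435 SE, adjusted p = 0.000797). The third Pan-TurboID pulldown was much lower than the other 2 but above each input. Snord67, in Ckap5, had 5.57 and 3.82 in the inputs and 228 and 270 in the pulldowns with eIF4G2 siRNA at rest, 53.1-fold higher (log2 5.73 ± 0.225 SE, adjusted p = 6.97e-14). At rest with TurboID-PSD95 it had 5.92, 15.9 and 2.08 against 145, 94.9 and 53.8 (adjusted p = 0.0535, and 4.52e-06 with the block).

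The imprinted SNORD116 cluster, a box C/D family with no known ribosomal RNA target, was among the families with the largest ratios. Gm26246 held 37396 of the 73100 counts on its set of identical copies, and only its own counts are given here. It had 33.5, 68.1 and 37.0 normalised counts in the resting TurboID-PSD95 inputs and 473, 204 and 2009 in the pulldowns (log2 4.28 ± 1.16 SE, adjusted p = 0.0196, and 0.055 to 0.215 without 1 replicate). For Pan-TurboID at rest it was not called (log2 2.33, adjusted p = 0.172). After DHPG it had 3.51, 4.2 and 1.95 against 33.6, 58.3 and 99.7 (log2 4.31 ± 0.669 SE, adjusted p = 0.00321), and with eIF4G2 siRNA and depolarization 6.49 and 1.31 against 716 and 1082 (log2 7.63 ± 0.767 SE, adjusted p = 0.00155). The inputs of this last comparison held only 25 and 3 counts on Gm26246. Of the SNORD116 members tested, 13 of 25 were higher at rest with TurboID-PSD95, 23 of 23 after DHPG and 21 of 22 with eIF4G2 siRNA at rest, where 8.32%, 28.8% and 16.8% of all rows were. Of those with at least 10 counts in every input 5 of 6, 7 of 7 and 6 of 6 were higher in the same order, against 9.39%, 27.7% and 15.6% of all such rows. An identical copy was found for 50 of the 70 SNORD116 members, so the rows counted here are not independent. SNORD115, its neighbour in the same host, had 58 members with a count, but none passed the filter in the KCl experiment and none had 10 counts in every input of any comparison, so no direction is given.

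The imprinted Rian cluster, of which 8 of 12 members had a count, gave 2 higher of 5 tested at rest with TurboID-PSD95 (8.32% of all rows) and 5 of 5 after DHPG (28.8% of all rows), but 1 of them, AF357425, had at least 10 counts in every DHPG input. The long transcript Rian was itself higher in these comparisons (log2 4.01 and 2.87, adjusted p = 0.00664 and 2.37e-12). AF357425 (chr12:109636012-109636084), in an exon of Rian, rose after DHPG from 9.62, 8.86 and 8.92 to 115, 132 and 100 (log2 3.66 ± 0.126 SE, adjusted p = 2.26e-12), and its counts overlap that exon, so the call is not particular to the snoRNA. Snord33, in an intron of the ribosomal protein gene Rpl13a, rose after DHPG from 4.16, 4.51 and 4.22 to 25.5, 30.2 and 21.2 (log2 2.57 ± 0.18 SE, adjusted p = 1.93e-09).

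Many box H/ACA snoRNAs rose with TurboID-PSD95, after DHPG and with eIF4G2 siRNA, and some were also called higher with Pan-TurboID. In the contrast of the baits below, no H/ACA member was called without the block. Summed H/ACA levels were 182, 570 and 463 normalised counts in the resting TurboID-PSD95 inputs and 1701, 2580 and 3731 in the pulldowns, and 154, 163 and 178 against 750, 684 and 595 after DHPG. Of 79 tested, 27 were higher at rest with TurboID-PSD95 (8.32% of all rows) and 29 after depolarization (5.4% of all rows), and none was lower. With Pan-TurboID 4 were higher at rest and 2 after depolarization, where 2.48% and 2.42% of all rows were, so the latter count is near the background. The block gave 58 and 52 higher with TurboID-PSD95, and 31 and 27 with Pan-TurboID, where 1 was lower at rest. After DHPG 51 of 56 were higher and 1 lower (28.8% and 50.7% of all rows), and with eIF4G2 siRNA at rest 66 of 68 were higher (16.8% of all rows). Among H/ACA members with at least 10 counts in every input 9 of 19 were higher at rest with TurboID-PSD95 (median log2 2.41), 2 of 11 with Pan-TurboID at rest (1.73), 21 of 23 after DHPG (1.93) and 8 of 9 with eIF4G2 siRNA at rest (4.14), against the shares of all such rows given above.

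Snora47 was called higher in all 7 comparisons. It had 3.54, 8.03 and 4.43 normalised counts in the resting TurboID-PSD95 inputs and 32.5, 113 and 54.3 in the pulldowns (log2 3.66 ± 0.666 SE, adjusted p = 0.00418, and up to 0.0729 without 1 replicate). With Pan-TurboID at rest it had 1.77, 5.29 and 6.14 against 17.6, 46.8 and 15.5 (log2 2.64, adjusted p = 0.0327, and up to 0.245 without 1 replicate), and after DHPG 11.8, 11.5 and 12 against 91.6, 72.7 and 82.7 (log2 2.8 ± 0.116 SE, adjusted p = 7.15e-12). Gm22988, a SNORA48 copy in Eif4a1, had 75.8, 104 and 175 at rest with TurboID-PSD95 against 710, 666 and 1300 (log2 2.92 ± 0.752 SE, adjusted p = 0.0159, and 0.0773 to 0.107 without 1 replicate). No library of either snoRNA overlapped between input and pulldown in these sets. Named members were in part chosen for pairs that agreed in sign, so this separation adds no separate evidence. Among all members with at least 10 counts in every input, all pulldowns lay above all inputs for 57 of 137 at rest with TurboID-PSD95. The same held for 30 of 115 with Pan-TurboID at rest and 99 of 157 after DHPG. All pulldowns lay below all inputs for 24, 31 and 45 in the same order.

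Of the scaRNAs, which guide modification of the snRNAs in Cajal bodies, 9 of 18 tested were higher at rest with TurboID-PSD95 and 13 of 13 after DHPG, where 8.32% and 28.8% of all rows were. Of those with at least 10 counts in every input 5 of 6 and 5 of 5 were higher, against 9.39% and 27.7% of all such rows. Both annotations of Gm23370 at its 1 locus can enter these counts. Gm23370, in an intron of Mgat5, was called higher in all 7 comparisons. It had 1.77, 1.91 and 4.95 normalised counts in the resting TurboID-PSD95 inputs and 38.6, 20.9 and 17.6 in the pulldowns (log2 3.26 ± 0.523 SE, adjusted p = 0.00164), and this call held without any 1 replicate. With Pan-TurboID at rest it had 0.38, 1.32 and 1.53 against 18.8, 13 and 8.28 (log2 3.73 ± 0.585 SE, adjusted p = 0.00428, and up to 0.140 without 1 replicate). Scarna3a rose at rest with TurboID-PSD95 from 3.92, 12.8 and 2.34 to 45.9, 52.7 and 51.4 (log2 2.98, adjusted p = 0.00955, and up to 0.101 without 1 replicate).

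A host gene's coding sequence gives a comparison within the same libraries, because its messenger RNA comes from the transcript that carries the snoRNA. At rest with TurboID-PSD95, 107 tested snoRNAs and scaRNAs lay in 85 tested host genes. Their median log2 difference was 3.04, that of the hosts' coding sequences was -0.29, and 102 of the 107 lay above their host. After DHPG 96 of 97 lay above their host, with medians of 2.36 and -0.64, and with eIF4G2 siRNA at rest 103 of 105, with medians of 4.12 and -0.30. Snord33 had a log2 difference of 2.57 after DHPG, where the coding sequence of its host Rpl13a fell by 0.96 (adjusted p = 6.24e-09). Gm22988 and Eif4a1 had 2.45 and -0.51 in the same comparison. The host was itself called higher for 10 of the 107 members and lower for 24 at rest with TurboID-PSD95. After DHPG it was called higher for 24 of the 97 and lower for 61. Gm23370 was among those with a higher host at rest with TurboID-PSD95, with 3.26 for the scaRNA and 1.10 for the coding sequence of Mgat5 (adjusted p = 0.0209 for the host). Several members share a host, so these pairs are not independent, and a member at 0 in the inputs could be tested only if it was high in the pulldowns. Among members with at least 10 counts in every input 26 of 28 lay above their host at rest with TurboID-PSD95 (medians 2.46 and -0.43), 35 of 36 after DHPG (2.26 and -0.81) and 18 of 19 with eIF4G2 siRNA at rest (4.14 and -0.38). In resting Pan-TurboID neurons 13 of 14 did (1.98 and -0.34).

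**Figure D5:**
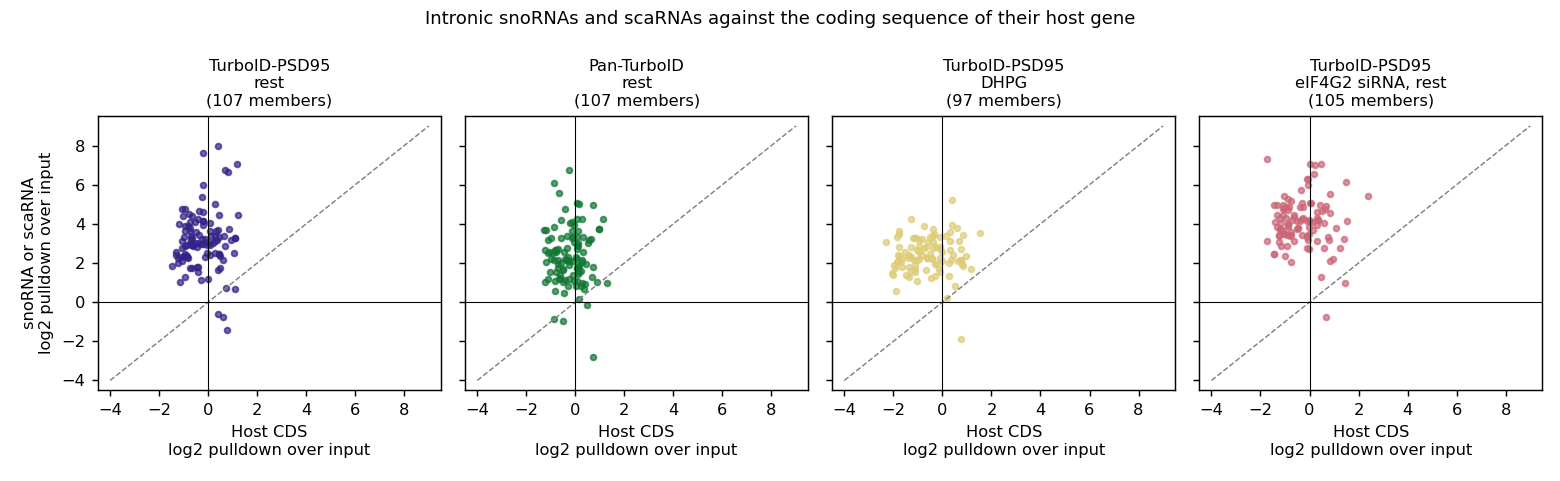
Log2 difference between pulldown and input of each snoRNA or scaRNA in an intron or retained intron, against that of the coding sequence of its host gene, in 4 comparisons, with a dashed line at equality. The points sit above the line, 102 of 107 at rest with TurboID-PSD95 and 96 of 97 after DHPG, around host medians of -0.29 and -0.64, and 26 of 28 and 35 of 36 among members with at least 10 counts in every input.

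The 2 baits were compared at rest and after depolarization in 1 contrast, the pulldown over input difference with TurboID-PSD95 minus that with Pan-TurboID. It called 1 member of 415 tested, the U1 copy Gm23680 (chr10:12363410-12363573, intergenic), which was also the only row called among all 18841, or 0.00531% of them. With TurboID-PSD95 at rest Gm23680 had 26.6, 29.1 and 28.6 normalised counts in inputs and 27.0, 30.7 and 152 in pulldowns. With Pan-TurboID at rest it had 38.7, 27.6 and 37.1 in inputs and 5.12, 2.06 and 3.83 in pulldowns, and after depolarization 51.8, 23.3 and 18.5 against 6.61, 2.08 and 4.58. It was thus lower in each Pan-TurboID pulldown (log2 -3.18 at rest, adjusted p = 0.020, and 0.175 to 0.215 without 1 replicate), while with TurboID-PSD95 it was not called (log2 1.29, adjusted p = 0.109). The contrast was 4.36 ± 0.608 (SE) with an adjusted p of 0.00896, and it was no longer called without replicate 2. With the replicate block 6 members were called, Gm23680 among them. The share of all rows called in that fit is not given here, so this count is not read as a difference between the baits. The median contrast over the 415 members was 0.86 and over all rows 0.02.

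Few members were called between resting and depolarized neurons. On simulated counts of this experiment, 3 of 50 rows changed 2-fold upward were recovered in the resting TurboID-PSD95 pulldown against input. Few calls therefore do not show that few members changed. Among the inputs of both baits, 2 members were higher and 5 lower after KCl of 415 tested, where 3.6% of all rows were higher and 7.12% lower. The U4 gene Gm24265 was lower in 6 of 6 pairs (log2 -0.75 ± 0.143 SE, adjusted p = 0.000758) and was the 1 call that held without any 1 replicate. In TurboID-PSD95 pulldowns 1 member was called, where 4.1% of all rows were: Gm22710 (chr1:118459141-118459265), in an exon of 2900060B14Rik, with 5.04, 6.90 and 3.42 normalised counts at rest and 18.5, 19.4 and 14.6 after KCl (log2 1.73 ± 0.325 SE, adjusted p = 0.00191), a call that held without any 1 replicate. The longer RNA 2900060B14Rik, whose exon holds Gm22710 and which overlaps its counts, differed by as much (log2 1.73 ± 0.326 SE, adjusted p = 0.00197), so the call is not particular to the snRNA. In Pan-TurboID pulldowns none was called by edgeR, where 3.4% of all rows were. At an unadjusted edgeR p under 0.05 there were 17 of 415 members, against 2780 of all 18841 rows. DESeq2 called 2 members, and the share of all rows that it called is not given here.

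Depolarized and resting inputs with eIF4G2 siRNA were compared in a separate fit, so its number of calls cannot be set against the number above. Of 368 members tested 45 were higher and 1 lower, where 6.88% of all rows were higher and 7.95% lower. U1 gave 15 of these calls. Gm22220 rose from a mean of 3553 to 7369 (log2 1.05 ± 0.0745 SE, adjusted p = 9.08e-10) and Rnu1b2 from 241 to 530 (log2 1.14 ± 0.0872 SE, adjusted p = 2.86e-09). The U5 gene Gm25099 rose from 1622 to 2502 (log2 0.63) and Rnu11 from 191 to 296 (log2 0.63). Without replicate 1 or 2 the calls numbered 26 and 10, of which 17 and 10 were among the 46. The difference between this and the change without siRNA was not tested.

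Other noncoding RNAs of known abundance were read in the same fits. Meg3 and Rian, neuronal long noncoding RNAs of 1 imprinted locus, were higher in the pulldown in all 7 comparisons, with log2 differences of 2.8 to 4.63 and 2.87 to 5.29. Malat1, a nuclear speckle RNA, had 3.19 at rest with TurboID-PSD95 and 2.61 after DHPG. With Pan-TurboID it had 2.53 at rest and 2.91 after KCl and was not called (adjusted p = 0.0936 and 0.0702). Its contrast between the 2 baits was 0.76 ± 0.865 (SE) and was not called either. Rn7sk, the RNA that holds the elongation factor P-TEFb inactive, had 2.24 at rest with TurboID-PSD95 (adjusted p = 0.00114) and 1.09 with Pan-TurboID (adjusted p = 0.0483). Rmrp and Rpph1, which cut ribosomal and transfer RNA precursors, were called only after DHPG and with eIF4G2 siRNA, at 1.68 and 0.85 after DHPG. The other noncoding rows together went the other way, as given above.

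The level of Eif4g2 itself was 284 to 338 normalised counts in the inputs given its siRNA and 457 to 812 in the inputs of the KCl experiment. Markers of neurons summed to 5194 to 11705 normalised counts over the 38 libraries, of astrocytes to 77.1 to 842, of the oligodendrocyte lineage to 12.4 to 495 and of microglia to 0 to 20.1. The DHPG inputs stood apart, with 79.6 to 84.6 for astrocyte and 37.1 to 42.0 for oligodendrocyte markers. Every other input had at least 286 and 128. The pulldown over input ratio of the summed neuronal markers was -0.60 to -0.12 on the log2 scale, that of astrocyte markers -0.25 to 0.33 and that of oligodendrocyte markers -1.59 to -0.79. Their part in the member values was not tested. The study's methods call the replicates biological and state that resting and stimulated cultures of 1 replicate were handled together, and the labels say nothing further of what they share.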

How the data were processed

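Ribosome-protected fragments were sequenced in 38 libraries. The authors trimmed adapters and unique molecular identifiers, aligned the reads to mm10 with Rsubread and counted them per transcript with Plastid. The deposited values are whole-number counts of read 5′ ends, for reads of 25 to 100 bases per the file headers, on coding sequences and on the regions outside them, in which noncoding transcripts appear. The headers name the alignments as cleared of ribosomal reads and of duplicates, with no method. The RPKM values beside them were not used. Treatment of reads with several matches and use of strand are not given in the sources used here. 

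The 3 tables were joined over all transcripts, with 1 row per coding gene and 1 per gene without a coding sequence, and members were found through the GENCODE M21 annotation (74685 of 75208 noncoding transcripts matched). Families came from RefSeq Rfam entries on GRCm38.p6 at 50% overlap, and sequences from RefSeq's genome of that build. The members and lists were chosen with earlier results of these data known.

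Levels are counts per 1000000 CDS counts. Tests used edgeR 4.0.16 in R 4.3.3 (robust quasi-likelihood F test, library size set to the CDS total, filterByExpr) on the whole table of each experiment, with Benjamini-Hochberg adjustment over all rows, a threshold of 0.05 and SE taken as the log2 difference over the root of F. Members named were the 5 with the highest mean level in each class, the 3 with the smallest p in each direction of a comparison with every pair agreeing in sign, the members of fixed lists, and the reference RNAs. Which sequences to print was decided after the values were seen. Input and pulldown of 1 number come from 1 lysate. Their deviations from the group means correlated at 0.317 to 0.659 in all 12 pairs of the KCl experiment, at -0.167 to 0.045 after DHPG and at 0.009 to 0.016 with siRNA, so the block is given beside results of the KCl experiment and only as a count for the other 2. No pair of replicates agreed within sampling noise (lowest chi-square per degree of freedom 1.48).

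On simulated counts with 200 changed rows, 36 of 50 rows changed 4-fold upward and 3 of 50 changed 2-fold were recovered in resting TurboID-PSD95 neurons, 50 and 43 after DHPG, and 43 and 20 with eIF4G2 siRNA at rest. Alternatives were TMM factors, the total of all 3 tables as library size, no low-count filter, identical or overlapping copies collapsed to the 1 with the most counts, edgeR's likelihood ratio test, DESeq2 1.42.0, the replicate block, summed levels without the 3 highest members, and leaving out each replicate.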

Additional observations from a re-analysis of the deposited data

Results flagged for a closer look

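The U1 copy Gm23680 stood out because its difference between pulldown and input was not the same with the 2 baits. The contrast of TurboID-PSD95 over Pan-TurboID was 4.36 on the log2 scale (SE 0.608, edgeR adjusted p = 0.00896, 0.000823 with the replicate block and 1.13e-10 with DESeq2), in the same direction in 6 of 6 pairs. It was not called without replicate 2. At rest the TurboID-PSD95 pulldowns had 27.0, 30.7 and 152 normalised counts and the Pan-TurboID pulldowns 5.12, 2.06 and 3.83, and 86.4% of its 25-base windows occur once in the genome.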

How the results depend on the processing

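Of 145 alternative values, 96 kept their direction and their side of the threshold or stayed near the reported value, 25 were stronger, 17 weaker and 7 moved, and none reversed. Apart from the block in the 4 pulldown comparisons of the KCl experiment, the share of all rows called under the settings of this paragraph is not given here. A larger number of member calls therefore cannot be read as particular to the members. Members called under no low-count filter numbered 282 for resting and 245 for depolarized TurboID-PSD95, 180 and 164 for Pan-TurboID, 34 for the bait contrast, and 50, 29 and 37 for KCl in inputs, TurboID-PSD95 pulldowns and Pan-TurboID pulldowns. The likelihood ratio test called 151 members in depolarized TurboID-PSD95, 92 and 73 in resting and depolarized Pan-TurboID, 2 in the bait contrast, 17 for KCl in inputs and 2 in TurboID-PSD95 pulldowns. DESeq2 called 181 members in resting and 113 in depolarized TurboID-PSD95, sharing 124 of 148 and 58 of 87 calls, 82 and 57 with Pan-TurboID, 2 in the bait contrast and 2 each for KCl in both kinds of pulldown. With the replicate block 249, 210, 164 and 142 members were called in the 4 pulldown comparisons of the KCl experiment, sharing 144 of 148, 86 of 87, 40 of 41 and 24 of 25 calls with the fit without it, 6 in the bait contrast and 2 for KCl in TurboID-PSD95 pulldowns. For the other 2 experiments, whose paired libraries also share a lysate but deviated together little, the block gave 291 calls after DHPG and 282 and 298 with eIF4G2 siRNA, against 293, 307 and 318 without it. With 1 replicate left out there were 7 to 43 calls in resting and 7 to 81 in depolarized TurboID-PSD95, 0 to 2 in resting and 0 in depolarized Pan-TurboID, 0 to 1 in the bait contrast, 1 to 3 for KCl in inputs and 10 to 26 for KCl in inputs with eIF4G2 siRNA. These were not always the calls of the full fit (59 of the 81 and 17 of the 26 were). Fewer samples entered these fits. The summed log2 ratio after DHPG was 1.71 with the total of all 3 tables, 1.73 with TMM factors and 1.34 without the 3 highest members, with eIF4G2 siRNA at rest 2.98, 2.99 and 2.49, and after depolarization 2.36 without the 3 highest members. The cause was not tested. Depth limits single members of low count: 1759 of 2943 had no count.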
